A study of Mus musculus with 30 samples.

Results

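Genes of the interferon response were followed in mouse muscle satellite cells, the stem cells that lie along muscle fibers and rebuild muscle after injury. A list of 47 interferon-induced genes and their regulators was used, grouped by role, and each gene was read from the brightest Affymetrix probe set that the platform annotation gives to that gene alone. By this rule 42 of the 47 listed genes were measured, of 19938 genes tested in all. Isg15, Gbp2, Ifi47 and Igtp lie only on probe sets shared with other genes, and Ifi44 is not listed in the annotation used here, so these 5 were left out. The 30 arrays form 10 groups of 3, and all cells came from hindlimb muscle. Activated satellite cells (ASCs) were taken 36, 60 or 84 hr after BaCl2 injury, and quiescent satellite cells (QSCs) from uninjured muscle. VCAM cells were VCAM-positive and CD31-, CD45- and Sca1-negative cells of C57BL6 wild-type mice, and were taken from old mice of 22 to 24 months (60 hr ASCs and QSCs) and from young mice of 2 to 3 months (ASCs of all 3 times and QSCs). YFP cells were YFP-positive cells of young Pax7CreER/+; ROSA26eYFP/+ mice of 2 to 3 months, in which tamoxifen, by the study's methods, switches on YFP in cells that use the Pax7 gene and in their descendants, and were taken at all 3 times and as QSCs. Sort, genotype and tamoxifen therefore changed together between YFP and VCAM cells and cannot be told apart. Whether a group's 3 arrays came from separate animals is not in the labels, and p-values therefore measure spread between arrays, which may be technical.

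Interferons bind cell surface receptors that activate Janus kinases, which phosphorylate STAT proteins. A complex of STAT proteins with IRF9 binds interferon-stimulated response elements in promoters, while STAT dimers bind a different element, called GAS. The induced genes encode sensors of foreign RNA and DNA, proteins that block steps of viral growth, parts of the antigen presentation machinery and brakes on the pathway. Many of them are also kept at a low tonic level in cells that have met no virus.

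The promoters of 31 of the 42 genes were found in RefSeq (build GRCm38.p6), as 36 windows of 300 bases that run from 250 bases before each start to 50 after it. The core GAAANNGAAA, searched on either strand, occurred in windows of 13 of the 31 genes (14 of 36 windows), and in 3.44% of all 32851 promoter windows of the same length. The palindrome TTCNNNGAA is a common form of the GAS element, and forms that depart from it were not searched. It occurred in windows of 8 of the 31 genes (8 of 36 windows), and in 8.30% of all windows. A match is a string of letters and was not tested as a binding site. Members with a window but no match, such as Oasl2, Lgals3bp, Irf7 and Irf9, also carry the findings that follow. So do members without a window, such as Parp14, Mx2 and Rtp4. The stretches below come from 8 genes that were picked among the members with a match. Each has 60 bases, reads 5′ to 3′ along the gene's own strand, and has the matched letters in capitals.
Ifit1, chr19:34640769-34640828, plus strand: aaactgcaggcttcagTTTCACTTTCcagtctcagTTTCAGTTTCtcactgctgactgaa
Ifit3, chr19:34583365-34583424, plus strand: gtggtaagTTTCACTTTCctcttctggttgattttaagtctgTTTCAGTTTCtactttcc
Irgm1, chr11:48871413-48871472, minus strand: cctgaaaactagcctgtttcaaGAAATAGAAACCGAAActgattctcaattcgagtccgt
Gbp3, chr3:142559977-142560036, plus strand: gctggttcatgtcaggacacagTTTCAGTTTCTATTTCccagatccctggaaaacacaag
Gbp7, chr3:142530258-142530317, plus strand: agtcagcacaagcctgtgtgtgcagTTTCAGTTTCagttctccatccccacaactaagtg
Ifi207, chr1:173741816-173741875, minus strand: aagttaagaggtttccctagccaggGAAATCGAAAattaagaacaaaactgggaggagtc
Trim30a, chr7:104465195-104465254, minus strand: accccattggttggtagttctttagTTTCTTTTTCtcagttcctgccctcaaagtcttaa
Irf1 (GAS form), chr11:53769898-53769957, plus strand: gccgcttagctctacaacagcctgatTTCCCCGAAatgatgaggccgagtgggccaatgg
Ifit1 and Ifit3 each held a pair of separate matches, and in Irgm1 and Gbp3 a pair of matches overlapped. In the windows shown, the matches of Irgm1, Gbp3, Gbp7, Ifi207 and Trim30a began within 60 bases before the start. Those of Ifit1 and Ifit3 began 85 to 156 bases before it. A second Trim30a window, of another start, had its match just after that start. Second windows of Gbp3 and Irf1 held no match.

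The values are log2 intensities, on which a difference of 1 is a 2-fold change. Array medians lay between 7.03 and 7.16, arrays of a group correlated at 0.996 to 0.998 across genes, and the SD of a member within groups had a median of 0.11 and a maximum of 0.18. The satellite cell factor Pax7 averaged 8.95 to 10.03 in ASCs and 10.98 to 11.68 in QSCs. Other satellite cell markers went different ways. From QSCs to 60 hr in young VCAM cells, Calcr averaged 12.03 and 6.89, Chodl 13.02 and 7.64, and Itga7 11.47 and 11.99. Markers of other cells were also read, although the VCAM gate excludes cells with CD45 or CD31 at the surface. The summed linear level of 20 monocyte and macrophage markers was 23844 to 24833 in old 60 hr ASCs. It was 22815 to 23224 at 36 hr, 11940 to 12573 at 60 hr and 24643 to 24957 at 84 hr in YFP ASCs, and 26324 to 27748, 6531 to 6987 and 14064 to 14411 at the same times in young VCAM ASCs. In QSCs the same sum was 2304 to 2339 in old VCAM cells, 1794 to 1903 in YFP cells and 1782 to 1838 in young VCAM cells. The summed level of 12 endothelial markers was 1613 to 12286 in ASCs and 6671 to 7545 in QSCs. A gene was called where its adjusted p was under 0.05 and its change at least 1.5-fold (limma). None of 12 lymphocyte and NK cell markers or 8 dendritic cell markers was called in any of the 22 comparisons, with 0 to 5 of a list in each direction at an unadjusted p under 0.05.

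Across the 10 groups the interferon response genes followed a common course with exceptions. Of the 42 members, 32 had their lowest group mean in young 60 hr ASCs, 20 of them in VCAM and 12 in YFP cells. The highest group mean lay in YFP 84 hr ASCs for 21 members and in old QSCs for 14. The mean log2 level over the 42 members was 7.68, 7.67 and 7.73 in old 60 hr ASCs and 8.31, 8.31 and 8.26 in old QSCs. In YFP cells it was 7.75, 7.77 and 7.83 in QSCs, 7.81, 7.84 and 7.80 at 36 hr, 7.10, 7.11 and 7.14 at 60 hr and 8.35, 8.33 and 8.37 at 84 hr. In young VCAM cells the values were 7.84, 7.87 and 7.92 in QSCs, 7.83, 7.84 and 7.86 at 36 hr, 7.04, 7.08 and 7.09 at 60 hr and 7.69, 7.72 and 7.75 at 84 hr. The arrays of the young 60 hr groups lay below those of every other group, and YFP 84 hr ASCs and old QSCs stood above all others. In bulk RNA, fewer cells of a type and less RNA per cell cannot be told apart.

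**Figure D1:**
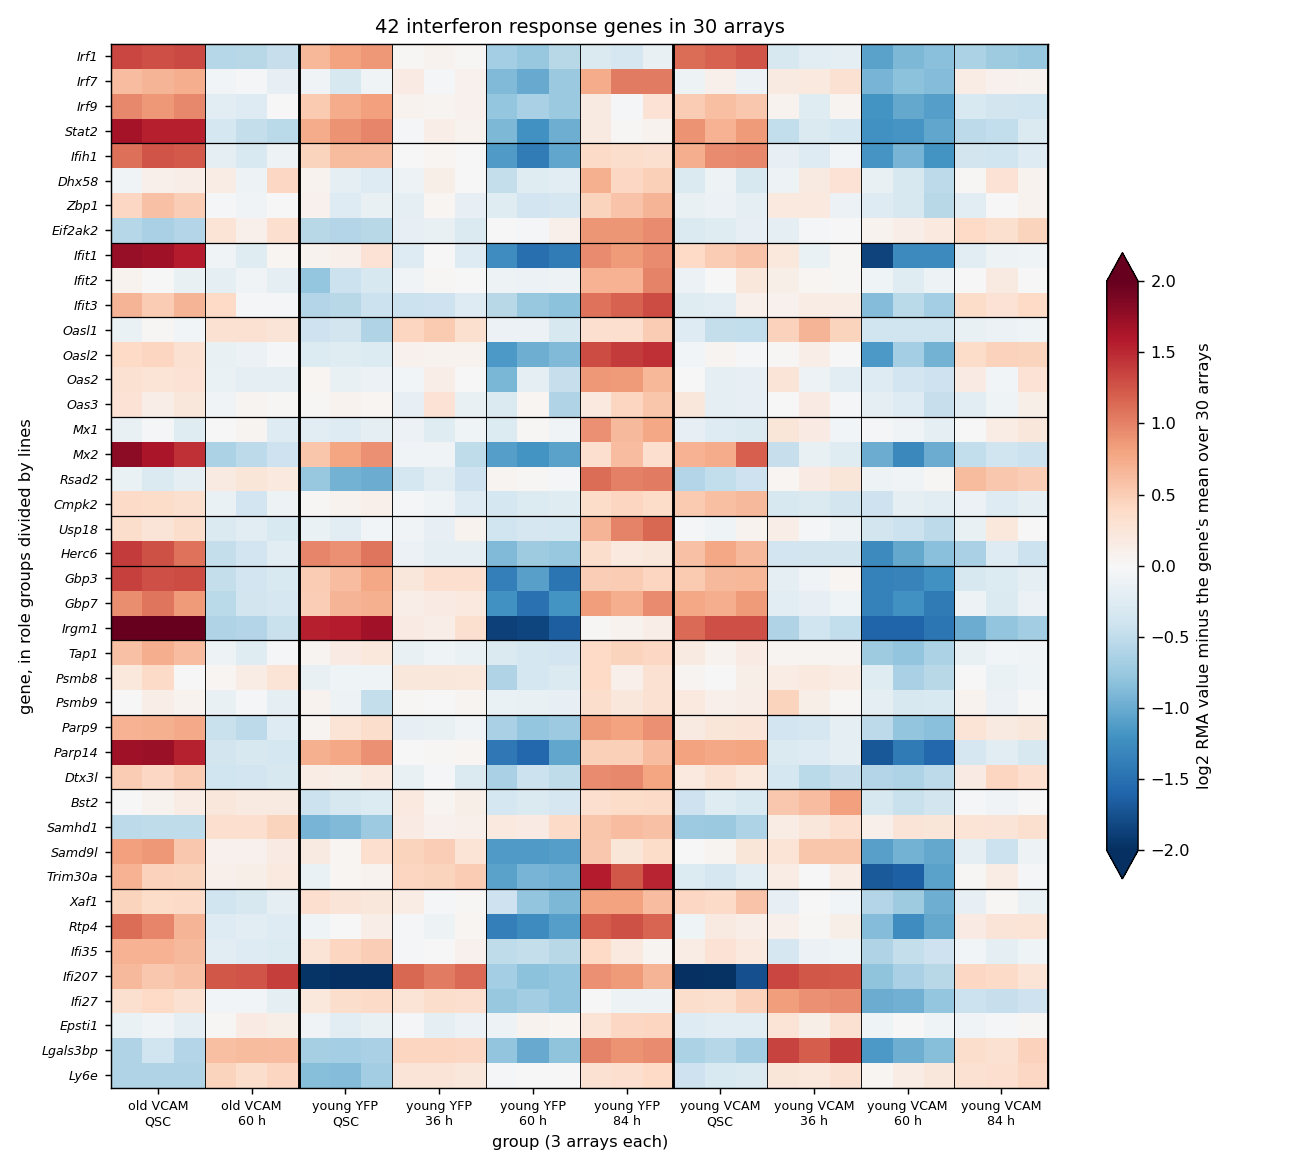
Log2 values of the 42 measured interferon response genes in 30 arrays, each minus that gene's mean over all arrays, with rows in role groups divided by lines and columns in groups of 3 arrays. Blue columns in both young 60 hr groups and red columns in old QSCs and YFP 84 hr ASCs show where 32 members were lowest and 35 were highest.

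At 36 hr the members were split. In YFP ASCs against QSCs, 5 rose and 7 fell (median change 0.02), with 10.1% of all genes called higher and 6.14% called lower. In young VCAM ASCs against QSCs, 7 rose and 12 fell (median 0.06), with 13.2% and 9.72% of all genes called. At 60 hr the balance was downward. In YFP ASCs 5 rose and 21 fell (median -0.59, background 17.2% higher and 12.8% lower), and in young VCAM ASCs 2 rose and 23 fell (median -0.82, background 16.6% and 12.6%). Of the members, 21 fell in both sorts at 60 hr. Old VCAM cells at 60 hr gave 5 rises and 20 falls against old QSCs (median -0.55, background 17.8% and 11.7%, median of all genes -0.11), and 18 members fell in all 3 comparisons. Those 18 were Dtx3l, Gbp3, Gbp7, Herc6, Ifi35, Ifih1, Ifit1, Irf1, Irf7, Irf9, Irgm1, Mx2, Parp14, Parp9, Rtp4, Samd9l, Stat2 and Xaf1. For calls shared between comparisons the share of all genes was not counted, so these joint counts have no background.

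The step from 36 to 60 hr was downward in both sorts. None rose (3 in YFP and 1 in VCAM cells were higher at an unadjusted p under 0.05, limma), and 23 members in YFP and 25 in VCAM cells fell, of which 22 fell in both. The background was 8.73% higher and 8.58% lower in YFP cells (members' median -0.61), and 6.26% and 8.49% in VCAM cells (members' median -0.73). The step from 60 to 84 hr was upward. In YFP cells 36 of 42 members rose and none fell (median 1.08, background 4.66% higher and 2.19% lower), and in VCAM cells 23 rose and none fell (median 0.61, background 3.22% and 0.732%). From 60 to 84 hr no member was lower at an unadjusted p under 0.05 in either sort (limma). All 23 that rose in VCAM cells also rose in YFP cells, and 18 members fell from 36 to 60 hr and rose from 60 to 84 hr in both sorts. Both steps share the 60 hr arrays of their sort. How many of all genes show these joint patterns over sorts or steps was not counted, so the joint counts have no background. The monocyte and macrophage markers moved with both steps. From 36 to 60 hr 13 of 20 fell in YFP and 20 in VCAM cells, and from 60 to 84 hr 17 of 20 rose in YFP and 16 in VCAM cells, and their part in the result was not tested. Of 10 fibroblast markers 9 fell in YFP and 8 in VCAM cells in the first step, and in the second 5 rose and 1 fell in YFP and 3 rose and 1 fell in VCAM cells. All 8 pericyte markers fell in both sorts in the first step, and 3 rose in YFP and 4 in VCAM cells in the second. Against QSCs at 60 hr, 19 of the 20 monocyte and macrophage markers in YFP cells and 18 in VCAM cells rose, while 11 of 12 endothelial markers fell in each sort, as did 6 of 8 pericyte markers in YFP and all 8 in VCAM cells, and 4 of 10 fibroblast markers fell in YFP cells and 3 fell and 2 rose in VCAM cells. The part of these cells in the changes was not tested. Cd34, counted here among the fibroblast markers, is named by the study as a known satellite cell marker. It averaged 11.98 in young VCAM QSCs and 10.24 at 60 hr, and 11.99 and 10.54 in YFP cells. All 12 endothelial markers fell from 36 to 60 hr in both sorts, and from 60 to 84 hr none was called in YFP cells (limma, 3 higher and 0 lower at an unadjusted p under 0.05) while 3 rose in VCAM cells.

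At 84 hr the sorts diverged. In YFP ASCs against QSCs 22 members rose and 4 fell (median 0.64, background 17.0% higher and 11.2% lower). In VCAM ASCs against QSCs 6 rose and 13 fell (median 0.01, background 16.4% and 11.2%). The members that fell at all 3 times were Herc6, Irf1, Irgm1 and Stat2 in YFP cells, and these 4 with Cmpk2, Gbp3, Gbp7, Ifih1, Irf9, Mx2 and Parp14 in VCAM cells. Those that rose at all 3 times were Ifi207, Ly6e and Samhd1 in YFP cells and Ifi207 and Samhd1 in VCAM cells. The share of all genes that fell or rose at all 3 times was not counted.

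All 4 regulators fell at 60 hr in both sorts, and Irf1 and Stat2 fell at all 3 times. Irf1, an interferon-gamma-induced transcription factor, read 10.91, 11.05 and 11.11 in QSCs, 10.26, 10.31 and 10.26 at 36 hr, 9.56, 9.48 and 9.68 at 60 hr and 9.96, 9.91 and 10.09 at 84 hr in YFP cells. In young VCAM cells Irf1 read 11.35, 11.41 and 11.50 in QSCs, 9.92, 10.01 and 10.06 at 36 hr, 9.17, 9.34 and 9.39 at 60 hr and 9.60, 9.53 and 9.49 at 84 hr. Every ASC array lay below every QSC array of its sort, and the change at 60 hr was -1.45 ± 0.07 in YFP cells (adjusted p = 1.14e-16, limma) and -2.12 ± 0.07 in VCAM cells (adjusted p = 2.92e-20, limma). Irf1 was also the regulator that recovered least, with a step from 60 to 84 hr of 0.41 ± 0.07 in YFP and 0.24 ± 0.07 in VCAM cells, under the fold threshold in both. Stat2, the STAT that pairs with IRF9, read 9.41, 9.57 and 9.64 in QSCs, 8.65, 8.81 and 8.74 at 36 hr, 7.77, 7.46 and 7.69 at 60 hr and 8.85, 8.69 and 8.74 at 84 hr in YFP cells. In VCAM cells Stat2 read 9.57, 9.36 and 9.52 in QSCs, 8.18, 8.39 and 8.32 at 36 hr, 7.46, 7.50 and 7.63 at 60 hr and 8.15, 8.18 and 8.38 at 84 hr. The groups did not overlap between QSCs and any ASC time, and Stat2 at 84 hr had regained part of its fall, by 1.12 ± 0.08 in YFP and 0.71 ± 0.08 in VCAM cells.

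Irf9, the DNA-binding partner of the STAT complex, gave 8.60, 8.83 and 8.90 in QSCs, 8.15, 8.12 and 8.16 at 36 hr, 7.31, 7.43 and 7.33 at 60 hr and 8.26, 8.03 and 8.37 at 84 hr in YFP cells. VCAM cells gave 8.58, 8.68 and 8.62 in QSCs, 8.15, 7.83 and 8.14 at 36 hr, 6.88, 7.06 and 6.98 at 60 hr and 7.77, 7.70 and 7.67 at 84 hr for Irf9. It was lowest at 60 hr in both sorts and lower in VCAM than in YFP 60 hr ASCs in every array, though the difference of 0.39 ± 0.09 (YFP over VCAM) was under the fold threshold. Irf7, which drives the production of type I interferon and is itself interferon-induced, took another course. It read 7.78, 7.54 and 7.78 in QSCs, 8.01, 7.83 and 7.94 at 36 hr, 6.97, 6.85 and 7.11 at 60 hr and 8.60, 8.90 and 8.89 at 84 hr in YFP cells. In VCAM cells it read 7.75, 7.95 and 7.74 in QSCs, 8.03, 8.05 and 8.16 at 36 hr, 6.93, 7.04 and 6.995 at 60 hr and 7.999, 7.94 and 7.93 at 84 hr. Irf7 was not below QSCs at 36 hr, fell at 60 hr in both sorts, and rose above QSCs at 84 hr in YFP cells by 1.10 ± 0.08 (adjusted p = 4.36e-12, limma), whereas in VCAM cells the difference at 84 hr was 0.14 ± 0.08.

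**Figure D2:**
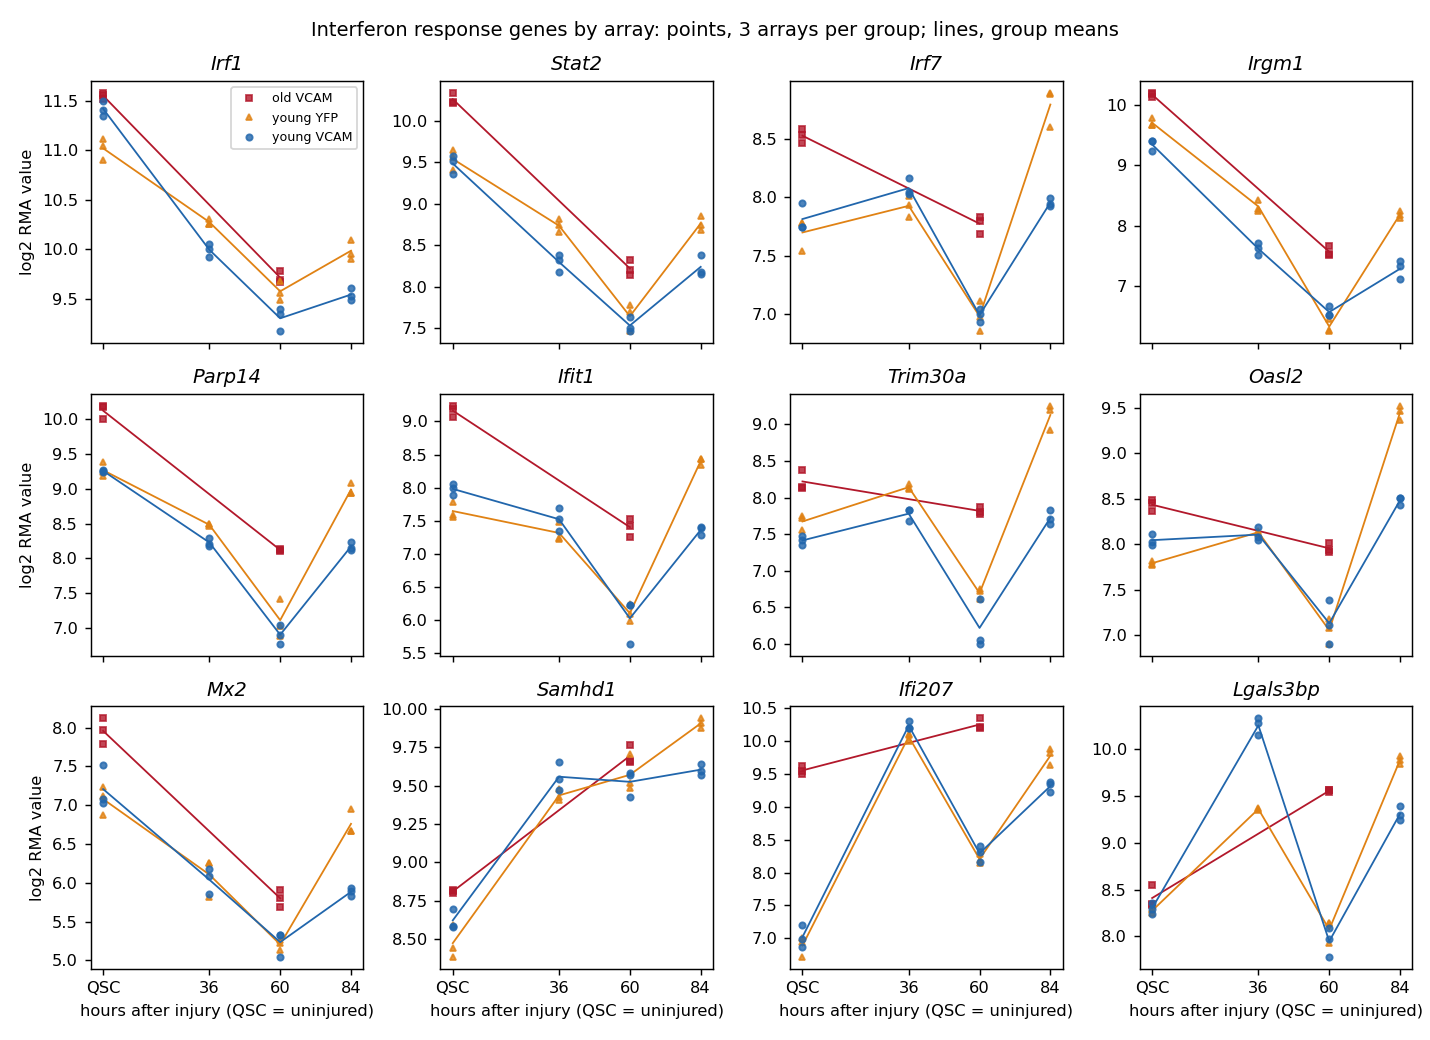
Log2 RMA values (vertical axis, own scale in each panel) of 12 interferon response genes against hours after injury, with QSCs at the left, points for the 3 arrays of each group and lines through group means. Irf1, Stat2, Irgm1, Parp14, Ifit1 and Mx2 were highest in QSCs of old VCAM cells (red squares), most genes were lowest at 60 hr in young cells (orange triangles, YFP; blue circles, VCAM), and Samhd1, Ifi207 and Lgals3bp were higher in ASCs than in QSCs at 36 and 84 hr.

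Among the sensors, Ifih1 (MDA5, a cytoplasmic receptor for long double-stranded RNA) moved most. It read 8.62, 8.81 and 8.80 in QSCs, 8.18, 8.21 and 8.18 at 36 hr, 7.05, 6.78 and 7.14 at 60 hr and 8.56, 8.53 and 8.50 at 84 hr in YFP cells. In VCAM cells Ifih1 read 8.91, 9.12 and 9.15 in QSCs, 8.01, 7.92 and 8.12 at 36 hr, 6.995, 7.25 and 6.99 at 60 hr and 7.81, 7.78 and 7.92 at 84 hr. It fell by 1.75 on the log2 scale in YFP and by 1.98 in VCAM cells at 60 hr, and by 84 hr the YFP arrays had come within -0.21 ± 0.08 of QSCs. Dhx58 (LGP2, a regulator of RNA sensing) and Zbp1 (a sensor of Z-form nucleic acid) did not pass the test at 36 or 60 hr in either sort, and both rose at 84 hr in YFP cells, by 0.65 and 0.67. Eif2ak2 (PKR, the kinase that halts translation on double-stranded RNA) went the other way at 60 hr, with 0.59 ± 0.06 in YFP cells, called, and 0.37 ± 0.06 in VCAM cells, not called. At 84 hr Eif2ak2 rose in both sorts, by 1.47 and 0.63.

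The IFIT proteins bind foreign RNA and block its translation. Ifit1 read 7.57, 7.59 and 7.79 in QSCs, 7.23, 7.49 and 7.23 at 36 hr, 6.25, 5.98 and 6.09 at 60 hr and 8.43, 8.34 and 8.43 at 84 hr in YFP cells. In VCAM cells it read 7.88, 8.001 and 8.06 in QSCs, 7.70, 7.35 and 7.52 at 36 hr, 5.64, 6.22 and 6.22 at 60 hr and 7.28, 7.39 and 7.41 at 84 hr. The 60 hr arrays were the lowest in both sorts, and at 84 hr every YFP array was above and every VCAM array below the QSC arrays of its own sort. Ifit1 was the only member that rose above QSCs at 84 hr in YFP cells, by 0.75 ± 0.12, and fell below QSCs in VCAM cells, by 0.62 on the log2 scale (adjusted p = 5.21e-05, limma). Its neighbours on chromosome 19 were flatter before 84 hr. Ifit2 passed the test at neither 36 nor 60 hr against QSCs, and Ifit3 likewise, with -0.58 in VCAM 60 hr ASCs. At 84 hr in YFP cells Ifit2 rose by 1.30 and Ifit3 by 1.72.

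In the OAS family, whose enzymes make oligoadenylates that activate RNase L, Oasl2 read 7.78, 7.82 and 7.79 in QSCs, 8.15, 8.13 and 8.13 at 36 hr, 6.91, 7.08 and 7.18 at 60 hr and 9.36, 9.46 and 9.53 at 84 hr in YFP cells. In VCAM cells Oasl2 read 7.998, 8.12 and 8.03 in QSCs, 8.08, 8.20 and 8.05 at 36 hr, 6.90, 7.39 and 7.11 at 60 hr and 8.43, 8.52 and 8.51 at 84 hr. It was not called at 36 hr, fell at 60 hr, and in the step to 84 hr rose by 2.39 ± 0.08 in YFP cells, against 1.35 ± 0.08 in VCAM cells. Oasl1 was different, rising at 36 hr by 0.88 in YFP and 0.94 in VCAM cells. Oas2 rose at 84 hr in YFP cells by 0.87, and Oas3 passed the test against QSCs at no time in either sort, with changes of -0.33 to 0.34.

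Mx2, an interferon-induced GTPase that restricts viruses, read 6.88, 7.12 and 7.24 in QSCs, 6.25, 6.25 and 5.81 at 36 hr, 5.22, 5.14 and 5.26 at 60 hr and 6.66, 6.95 and 6.67 at 84 hr in YFP cells. In VCAM cells Mx2 read 7.02, 7.08 and 7.52 in QSCs, 5.86, 6.18 and 6.08 at 36 hr, 5.33, 5.04 and 5.33 at 60 hr and 5.83, 5.93 and 5.89 at 84 hr. Its 60 hr arrays were dim, at 5.04 to 5.33, and no array at any time after injury in VCAM cells reached a QSC array. Mx1 was under 6 in every group and rose in YFP cells at 84 hr by 0.99. Rsad2 (viperin, which makes a chain-terminating nucleotide) rose at 84 hr by 1.95 in YFP and 1.05 in VCAM cells, whereas the neighbouring Cmpk2, a nucleotide kinase, fell in VCAM cells at all 3 times, by 0.92, 0.86 and 0.79 on the log2 scale, and was not called against QSCs in YFP cells, where its changes were -0.19, -0.36 and 0.32 at 36, 60 and 84 hr. Both genes lie on chromosome 12. Of the ISG15 system, Herc6 (which in the mouse attaches ISG15 to proteins) fell at all 3 times, with changes of -1.77 in YFP and -1.71 in VCAM cells at 60 hr, and Usp18, the protease that removes ISG15 and dampens receptor signalling, rose at 84 hr in YFP cells by 1.08.

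All 3 GTPases that act against pathogen vacuoles fell at 60 hr in both sorts. Irgm1, a regulator of this family, read 9.66, 9.67 and 9.79 in QSCs, 8.28, 8.25 and 8.43 at 36 hr, 6.24, 6.27 and 6.45 at 60 hr and 8.13, 8.18 and 8.24 at 84 hr in YFP cells. In VCAM cells it read 9.24, 9.40 and 9.40 in QSCs, 7.51, 7.71 and 7.62 at 36 hr, 6.51, 6.51 and 6.66 at 60 hr and 7.12, 7.32 and 7.41 at 84 hr. No ASC array reached a QSC array in either sort, and the fall at 60 hr was -3.39 ± 0.08 in YFP cells (adjusted p = 2.72e-23, limma) and -2.79 ± 0.08 in VCAM cells (adjusted p = 1.51e-21, limma), the largest of any member at that time in both sorts. Gbp3, a guanylate-binding protein, read 8.67, 8.77 and 8.93 in QSCs, 8.38, 8.48 and 8.48 at 36 hr, 6.78, 7.07 and 6.69 at 60 hr and 8.65, 8.65 and 8.57 at 84 hr in YFP cells. In VCAM cells Gbp3 read 8.67, 8.80 and 8.81 in QSCs, 7.95, 8.08 and 8.19 at 36 hr, 6.81, 6.81 and 6.93 at 60 hr and 7.82, 7.88 and 7.96 at 84 hr. The YFP arrays at 84 hr lay just under those of QSCs, with a change of -0.16 ± 0.08, and VCAM arrays stayed lower, at -0.87 ± 0.08. Gbp7, which neighbours Gbp3 on chromosome 3, fell at 60 hr by 1.93 on the log2 scale in YFP and 2.10 in VCAM cells and rose by 2.13 and 1.15 in the step to 84 hr.

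Antigen processing genes moved little. Tap1, a subunit of the peptide transporter, fell at 60 hr in VCAM cells (-0.85 ± 0.06), with -0.49 ± 0.06 in YFP cells, not called. The immunoproteasome subunits Psmb8 and Psmb9 were called against QSCs at no time, and Psmb9 was called in none of the comparisons between 2 groups. Parp9, Dtx3l and Parp14 lie together on chromosome 16, and the first 2 form a ubiquitin ligase complex. Parp14, which attaches ADP-ribose to proteins, read 9.18, 9.24 and 9.37 in QSCs, 8.46, 8.49 and 8.50 at 36 hr, 7.03, 6.89 and 7.42 at 60 hr and 8.94, 8.94 and 9.08 at 84 hr in YFP cells. In VCAM cells Parp14 read 9.27, 9.24 and 9.25 in QSCs, 8.18, 8.21 and 8.29 at 36 hr, 6.77, 7.05 and 6.90 at 60 hr and 8.12, 8.24 and 8.15 at 84 hr. All 3 of these genes fell at 60 hr in both sorts and rose in the step to 84 hr, and Parp14 had the widest course, with 1.87 ± 0.09 in YFP and 1.27 ± 0.09 in VCAM cells in that step.

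Restriction factors were divided. Trim30a, a mouse protein that dampens Toll-like receptor signalling, read 7.55, 7.72 and 7.75 in QSCs, 8.12, 8.13 and 8.18 at 36 hr, 6.62, 6.75 and 6.72 at 60 hr and 9.25, 8.93 and 9.20 at 84 hr in YFP cells. In VCAM cells Trim30a read 7.42, 7.35 and 7.48 in QSCs, 7.83, 7.69 and 7.82 at 36 hr, 5.999, 6.05 and 6.61 at 60 hr and 7.71, 7.83 and 7.64 at 84 hr. It was not below QSCs at 36 hr, was lowest at 60 hr, and made the second largest step of all members to 84 hr in YFP cells, 2.43 ± 0.11, after Rtp4 with 2.46 ± 0.09. Samd9l followed Trim30a at 60 hr, with -1.31 in YFP and -1.12 in VCAM cells. Samhd1, which removes the nucleotides that viral polymerases need, did the reverse and rose at every time, by 0.96, 1.10 and 1.43 in YFP cells and 0.94, 0.90 and 0.98 in VCAM cells. Bst2 (tetherin, which holds budding virus at the membrane) rose at 36 hr in VCAM cells by 0.98 and at 84 hr in YFP cells by 0.70.

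Of the remaining genes, Rtp4, an interferon-induced receptor transporter, read 7.54, 7.64 and 7.75 in QSCs, 7.61, 7.53 and 7.67 at 36 hr, 6.25, 6.37 and 6.52 at 60 hr and 8.83, 8.90 and 8.78 at 84 hr in YFP cells. In VCAM cells Rtp4 read 7.54, 7.81 and 7.75 in QSCs, 7.73, 7.65 and 7.75 at 36 hr, 6.76, 6.38 and 6.60 at 60 hr and 7.79, 7.88 and 7.90 at 84 hr. Its 36 hr arrays overlapped those of QSCs, and its 84 hr arrays in YFP cells lay above all QSC arrays, by 1.195 ± 0.09. Ifi207, of the PYHIN family, some members of which sense DNA, read 7.01, 6.72 and 6.95 in QSCs, 10.11, 9.997 and 10.09 at 36 hr, 8.28, 8.14 and 8.19 at 60 hr and 9.87, 9.82 and 9.64 at 84 hr in YFP cells. In VCAM cells Ifi207 read 6.87, 6.98 and 7.21 in QSCs, 10.30, 10.20 and 10.19 at 36 hr, 8.16, 8.31 and 8.41 at 60 hr and 9.37, 9.34 and 9.23 at 84 hr. It rose more than any other member, by 3.18 ± 0.08 in YFP and 3.21 ± 0.08 in VCAM cells at 36 hr (adjusted p = 3.11e-21 and 1.12e-21, limma), and stayed above QSCs at 60 hr. Ifi207 belongs to a cluster of closely related genes on chromosome 1, and cross-hybridization between them was not tested. Lgals3bp, a secreted glycoprotein that binds galectins, read 8.28, 8.25 and 8.29 in QSCs, 9.37, 9.36 and 9.35 at 36 hr, 8.15, 7.93 and 8.14 at 60 hr and 9.93, 9.84 and 9.89 at 84 hr in YFP cells. In VCAM cells Lgals3bp read 8.30, 8.36 and 8.24 in QSCs, 10.28, 10.15 and 10.33 at 36 hr, 7.78, 7.97 and 8.09 at 60 hr and 9.29, 9.24 and 9.39 at 84 hr. It peaked at 36 hr in VCAM cells, where it was 0.89 lower on the log2 scale in YFP than in VCAM ASCs, and was not called against QSCs at 60 hr in either sort. The 3 highest group means of Ifi207 and of Lgals3bp lay in groups with monocyte and macrophage marker sums of at least 22815. Those of Rtp4 did not. In old QSCs, where that sum was 2304 to 2339, Ifi207 averaged 9.55 and Rtp4 read 8.74, 8.60 and 8.30. The part of monocytes and macrophages was not tested. Ly6e, a surface protein with antiviral activity, rose in YFP cells at all 3 times by 1.05, 0.80 and 1.15. Xaf1 and Ifi35 fell at 60 hr in both sorts, Ifi27 likewise by 1.06 in YFP and 1.29 in VCAM cells on the log2 scale, and Epsti1 was called in no comparison.

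The comparison of the sorts asks whether cells taken by the reporter and by surface proteins carry the same interferon program. In QSCs no member passed the test between YFP and VCAM cells (limma, 4 higher and 12 lower at an unadjusted p under 0.05), with a median of -0.06 and 1.82% of all genes called higher and 1.74% lower. At 36 hr Irgm1 was higher in YFP cells by 0.70 ± 0.08 and Lgals3bp lower by 0.89 on the log2 scale, with 2.49% and 2.78% of all genes called. Endothelial markers had higher means in YFP than in VCAM 36 hr ASCs, for example Pecam1 with 10.98 against 9.59. Fibroblast markers went both ways, with 10.01 against 11.73 for Pdgfra and 10.76 against 9.99 for Dpt. The part of these cells in the 36 hr differences was not tested. At 60 hr no member passed (limma, 8 higher and 3 lower at an unadjusted p under 0.05), with a median of 0.04 and 0.757% and 0.557% of all genes called. At 84 hr 22 of 42 members were higher in YFP cells and none lower (limma, 0 lower at an unadjusted p under 0.05), with a median of 0.61, where 1.21% of all genes were called higher and 0.446% lower. In 41 of the 42 members all 3 YFP arrays lay above all 3 VCAM arrays, the exception being Ly6e. The share of all genes that separate in this way was not counted, so this count has no background.

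The largest of these differences at 84 hr were those of Trim30a, 1.40 ± 0.11 (adjusted p = 5.74e-10, limma), Ifit1, 1.04 ± 0.12, and Gbp7, 1.00 ± 0.08. Trim30a read 9.25, 8.93 and 9.20 in YFP 84 hr ASCs, against 7.71, 7.83 and 7.64 in VCAM 84 hr ASCs. Ifit1 read 8.43, 8.34 and 8.43 in YFP cells, against 7.28, 7.39 and 7.41 in VCAM cells. Gbp7 read 9.35, 9.25 and 9.46 in YFP cells, against 8.42, 8.23 and 8.40 in VCAM cells. By role, all 3 IFIT genes, all 3 GTPases, both genes of the ISG15 system and all 3 genes of the PARP9 group were higher in YFP cells, as were 1 of 4 regulators (Irf7), 2 of 4 sensors, 2 of 4 OAS genes, 2 of 4 MX and viperin genes, 2 of 4 restriction factors, 2 of 8 others and none of the 3 antigen processing genes. The marker sums differed too. The 20 monocyte and macrophage markers summed to 24643 to 24957 in YFP and 14064 to 14411 in VCAM 84 hr ASCs, and 14 of 20 were called higher. At 60 hr 13 of these 20 markers were higher in YFP cells, with sums of 11940 to 12573 in YFP and 6531 to 6987 in VCAM cells, while no member was called. The part of these cells in the difference at 84 hr was not tested. Of 12 endothelial markers none was called at 84 hr (limma, 7 higher and 1 lower at an unadjusted p under 0.05), and 4 of 10 fibroblast markers were lower in YFP cells.

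**Figure D3:**
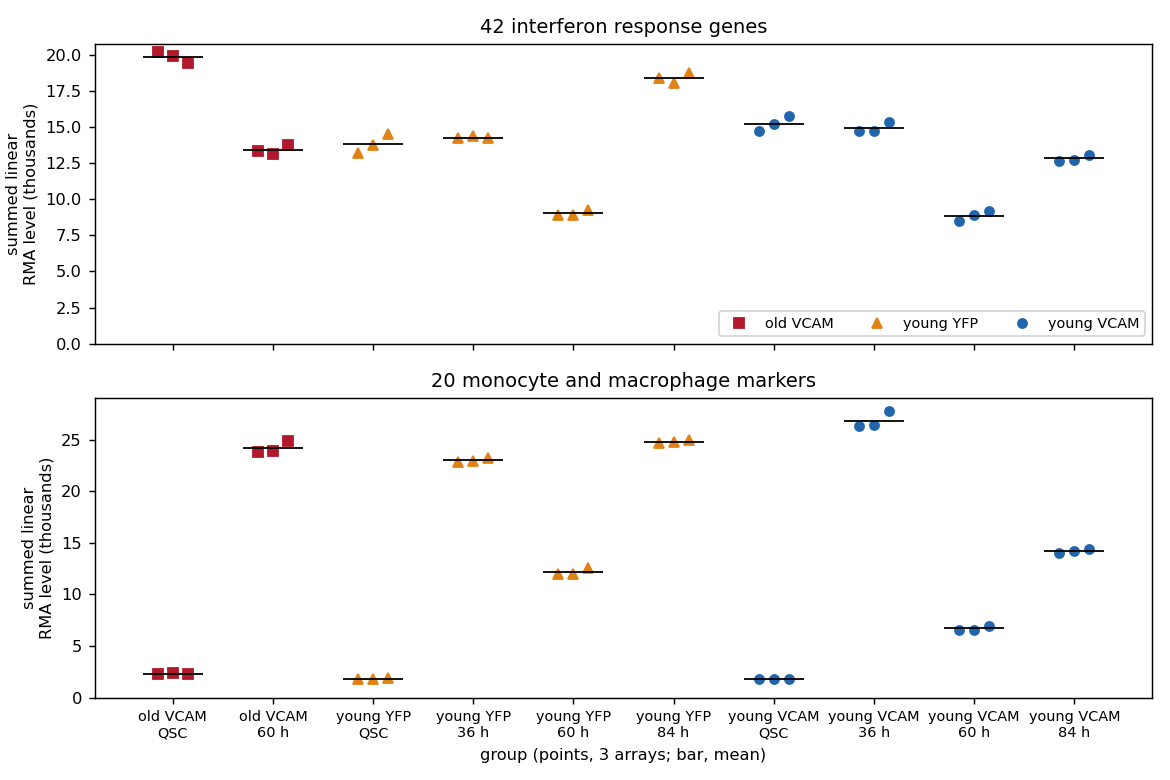
Summed linear RMA level (vertical axes from 0) of the 42 interferon response genes (top) and of 20 monocyte and macrophage markers (bottom) in each array, with points for arrays and bars for group means. The members were highest in old QSCs and YFP 84 hr ASCs, and the markers lay between 1782 and 2339 in all QSC groups and highest at 36 hr in young VCAM ASCs.

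The difference between the sorts was also taken on the response itself. From QSCs to 84 hr, 25 members changed more upward in YFP than in VCAM cells and none less (limma, 39 higher and 0 lower at an unadjusted p under 0.05), with a median of 0.62 and 3.84% of all genes called higher and 2.71% lower. In the step from 60 to 84 hr, 21 did so and none the reverse (36 and 0 at an unadjusted p under 0.05), with a median of 0.58 and 0.838% and 0.441% of all genes called. These comparisons share the 84 hr arrays with those above. At 36 hr Cmpk2 and Irf1 had a higher and Lgals3bp a lower response in YFP cells (background 4.61% and 4.47%), and at 60 hr Irf1 had a higher and Irgm1 a lower one (background 2.78% and 2.21%). With the mean of its probe sets Irf1 was called at neither time, with 0.50 and 0.35, and Irgm1 was not called under quantile normalization (-0.56) or in 5 fits without 1 array (-0.58 to -0.55).

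Age was compared in VCAM cells. In old QSCs against young QSCs 13 of 42 members rose and none fell (limma, 28 higher and 3 lower at an unadjusted p under 0.05), with a median of 0.36, while 3.04% of all genes were called higher and 4.70% lower. In old against young 60 hr ASCs 20 rose and none fell (35 and 0 at an unadjusted p under 0.05), with a median of 0.57, while 4.75% of all genes were called higher and 0.657% lower. Higher in old cells at both stages were Gbp3, Ifi207, Ifit1, Ifit3, Irf7, Irgm1, Parp14, Rtp4, Samd9l, Stat2 and Trim30a. Mx2 and Zbp1 were called among QSCs alone, and Gbp7, Herc6, Ifi27, Ifih1, Irf9, Lgals3bp, Oasl1, Oasl2 and Psmb8 at 60 hr alone. How many of all genes were higher at both stages was not counted, so this overlap has no background.

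Ifi207 differed most. It read 9.62, 9.50 and 9.54 in old QSCs, against 6.87, 6.98 and 7.21 in young QSCs, a change of 2.53 ± 0.08 (adjusted p = 5.36e-18, limma). At 60 hr Ifi207 read 10.20, 10.21 and 10.34 in old ASCs, against 8.16, 8.31 and 8.41 in young ASCs. Old cells were thus above young ones without overlap at both stages. Ifit1 read 9.24, 9.19 and 9.06 in old QSCs, against 7.88, 8.001 and 8.06 in young QSCs, a change of 1.18 ± 0.12. At 60 hr it read 7.42, 7.26 and 7.53 in old ASCs, against 5.64, 6.22 and 6.22 in young ASCs, a change of 1.38 ± 0.12. Parp14 read 10.17, 10.19 and 9.997 in old QSCs, against 9.27, 9.24 and 9.25 in young QSCs. The 60 hr values of Parp14 were 8.10, 8.14 and 8.12 in old ASCs, against 6.77, 7.05 and 6.90 in young ASCs, so that Parp14 was higher by 0.86 among QSCs and by 1.22 at 60 hr.

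Among the regulators, Stat2 read 10.33, 10.22 and 10.22 in old QSCs, against 9.57, 9.36 and 9.52 in young QSCs, and 8.32, 8.19 and 8.14 in old 60 hr ASCs, against 7.46, 7.50 and 7.63 in young ones. Irf7 read 8.47, 8.53 and 8.59 in old QSCs, against 7.75, 7.95 and 7.74 in young QSCs, and 7.80, 7.84 and 7.69 in old 60 hr ASCs, against 6.93, 7.04 and 6.995 in young ones. Both rose at both stages. Irf9 read 9.04, 8.94 and 9.04 in old QSCs, against 8.58, 8.68 and 8.62 in young QSCs, and 7.85, 7.83 and 8.08 in old 60 hr ASCs, against 6.88, 7.06 and 6.98 in young ones. Irf1 read 11.58, 11.52 and 11.56 in old QSCs, against 11.35, 11.41 and 11.50 in young QSCs, and 9.67, 9.69 and 9.78 in old 60 hr ASCs, against 9.17, 9.34 and 9.39 in young ones. Irf9 was called at 60 hr alone, and Irf1 at neither stage, with 0.13 ± 0.07 and 0.41 ± 0.07.

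Irgm1 read 10.18, 10.14 and 10.20 in old QSCs, against 9.24, 9.40 and 9.40 in young QSCs, and 7.50, 7.52 and 7.66 in old 60 hr ASCs, against 6.51, 6.51 and 6.66 in young ones. Gbp3 read 9.52, 9.44 and 9.45 in old QSCs, against 8.67, 8.80 and 8.81 in young QSCs, and 7.68, 7.77 and 7.84 in old 60 hr ASCs, against 6.81, 6.81 and 6.93 in young ones. Both GTPases were higher in every old array, by 0.83 and 0.71 in QSCs and 1.00 and 0.91 at 60 hr. Mx2 read 8.12, 7.97 and 7.79 in old QSCs, against 7.02, 7.08 and 7.52 in young QSCs, and 5.69, 5.81 and 5.91 in old 60 hr ASCs, against 5.33, 5.04 and 5.33 in young ones. Rtp4 read 8.74, 8.60 and 8.30 in old QSCs, against 7.54, 7.81 and 7.75 in young QSCs, and 7.36, 7.41 and 7.37 in old 60 hr ASCs, against 6.76, 6.38 and 6.60 in young ones. Mx2 just missed the fold threshold at 60 hr, with 0.57 ± 0.13, while Rtp4 was called at both stages.

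Ifih1 read 9.29, 9.44 and 9.40 in old QSCs, against 8.91, 9.12 and 9.15 in young QSCs, and 7.98, 7.88 and 8.08 in old 60 hr ASCs, against 6.995, 7.25 and 6.99 in young ones. Oasl2 read 8.46, 8.49 and 8.36 in old QSCs, against 7.998, 8.12 and 8.03 in young QSCs, and 7.92, 7.94 and 8.02 in old 60 hr ASCs, against 6.90, 7.39 and 7.11 in young ones. For these genes the arrays did not overlap between ages, but only the 60 hr change reached the fold threshold. Trim30a read 8.38, 8.15 and 8.13 in old QSCs, against 7.42, 7.35 and 7.48 in young QSCs, and 7.78, 7.80 and 7.88 in old 60 hr ASCs, against 5.999, 6.05 and 6.61 in young ones. Lgals3bp read 8.34, 8.55 and 8.35 in old QSCs, against 8.30, 8.36 and 8.24 in young QSCs, and 9.54, 9.56 and 9.56 in old 60 hr ASCs, against 7.78, 7.97 and 8.09 in young ones. Trim30a was higher in every old array at both stages, whereas Lgals3bp overlapped between ages in QSCs and differed by 1.61 ± 0.07 at 60 hr (adjusted p = 5.14e-16, limma).

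**Figure D4:**
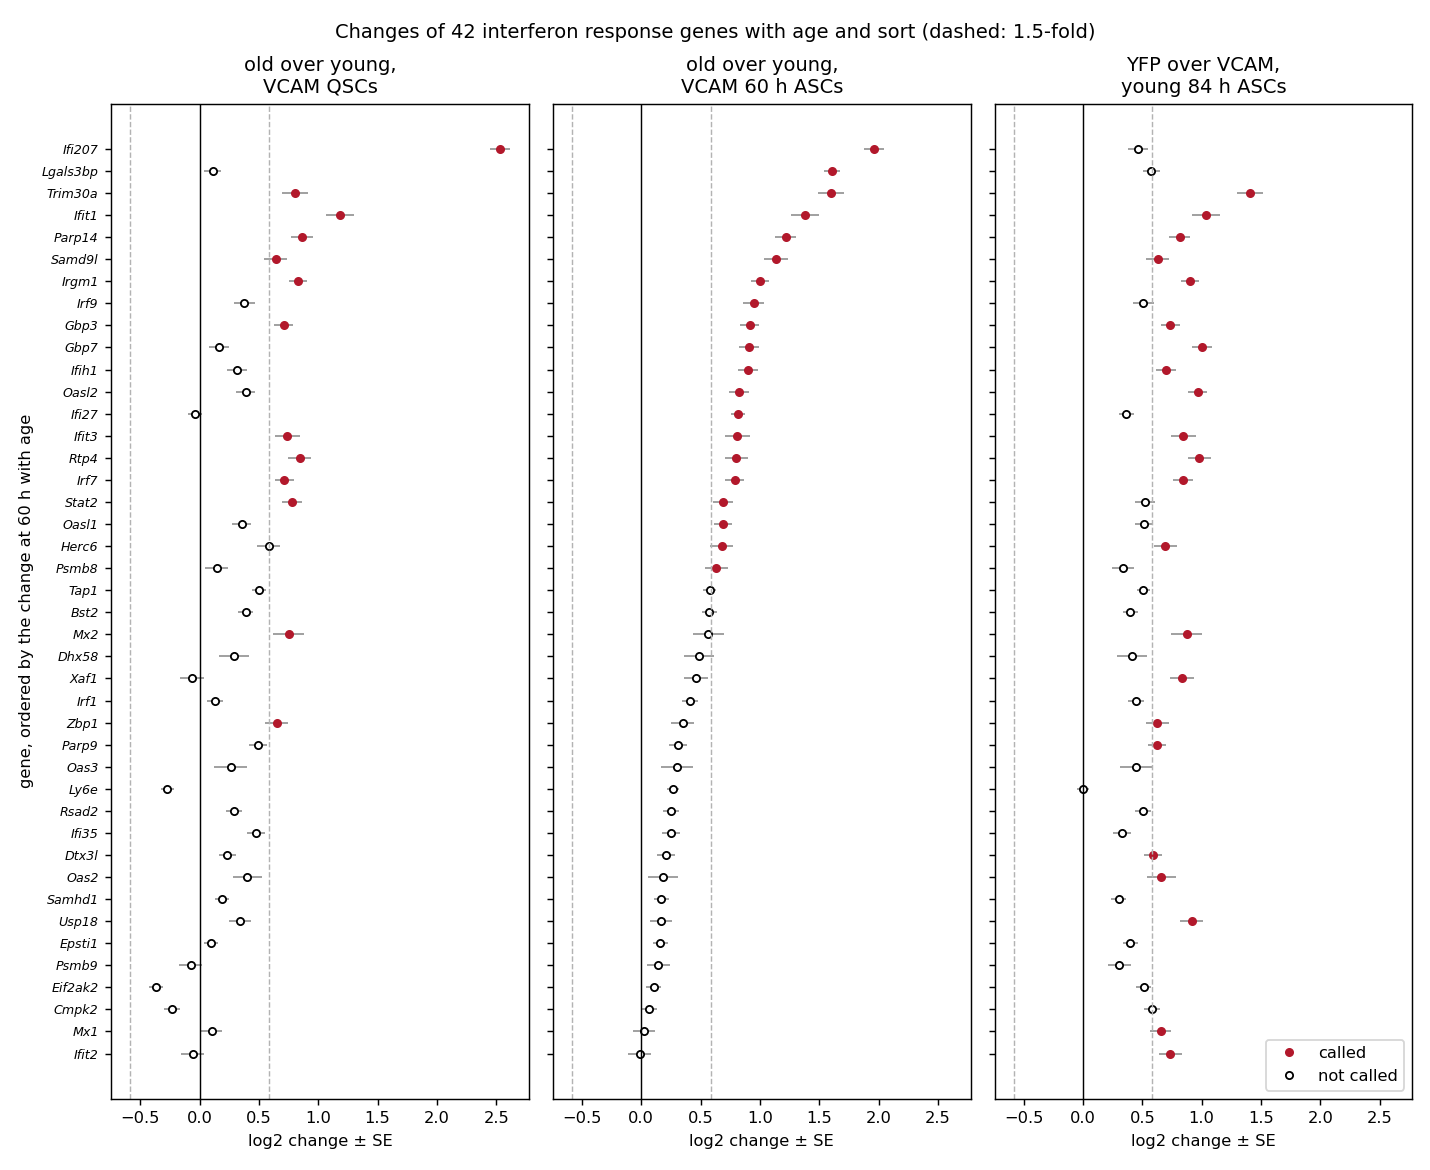
Log2 change with its standard error for each of the 42 interferon response genes in old over young VCAM QSCs (left), old over young VCAM 60 hr ASCs (middle) and YFP over VCAM young 84 hr ASCs (right), with filled points for called genes and dashed lines at 1.5-fold. Called genes number 13, 20 and 22, and all are higher.

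The other markers differed between the 2 stages. In old QSCs 1 of 20 monocyte and macrophage markers was called higher, Cd68, and none lower, with sums of 2304 to 2339 in old and 1782 to 1838 in young QSCs. None of 12 endothelial markers was called (limma, 4 higher and 2 lower at an unadjusted p under 0.05), 3 of 10 neutrophil markers were higher, 5 of 8 pericyte markers were lower, and 4 of 10 fibroblast markers were higher and 3 lower. At 60 hr all 20 monocyte and macrophage markers were higher in old ASCs, with sums of 23844 to 24833 in old and 6531 to 6987 in young ASCs, as were 8 of 12 endothelial, 6 of 10 fibroblast and 4 of 8 pericyte markers. The part of these cells in the age differences was not tested.

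The response to injury at 60 hr was compared between the ages. It was more upward in old than in young cells for 5 members, Lgals3bp (1.499 ± 0.10), Ifi27 (0.85 ± 0.08), Trim30a (0.79 ± 0.15), Gbp7 (0.74 ± 0.12) and Ifih1 (0.59 ± 0.12), and more downward for none (limma, 17 higher and 3 lower at an unadjusted p under 0.05), with a median of 0.18. Under median centring and under quantile normalization the split was 4 more upward and 1 more downward. Of all genes 6.81% were called higher and 2.16% lower in this comparison. For the other 37 members a difference in response between ages did not pass the test, and the fall from old QSCs to old 60 hr ASCs was -2.61 for Irgm1, -2.04 for Stat2 and -2.16 for Mx2. In absolute level, the summed value of the 42 members was 13177 to 13762 in old 60 hr ASCs, against 8497 to 9173 in young 60 hr ASCs, and 19460 to 20191 in old QSCs, against 14722 to 15765 in young QSCs.

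Other genes of the pathway were read from lists that, like the members, were drawn up with earlier results of these data known. Of 8 interferon genes measured (Ifnb1, Ifng, Ifna2, Ifna4, Ifna5, Ifne, Ifnk and Ifnl2), none was called in young YFP or VCAM cells at 60 hr or in the step to 84 hr, in the comparison of sorts at 84 hr or between old and young cells (limma, 0 to 2 in each direction at an unadjusted p under 0.05), and group means were 5.02 to 5.26 for Ifnb1, 6.12 to 6.70 for Ifna2, 7.34 to 7.84 for Ifna5 and 7.80 to 8.64 for Ifnl2. Other comparisons are not in this count. Among them, Ifnl2 averaged 8.64 in young VCAM QSCs and 7.90 in young VCAM 84 hr ASCs, and 8.51 in old QSCs and 7.85 in old 60 hr ASCs. Of 9 receptor and Janus kinase genes, 1 rose and 3 fell at 60 hr in each young sort. At that time 17.2% of all genes were called higher and 12.8% lower in YFP cells, and 16.6% and 12.6% in VCAM cells. In YFP cells Ifngr2, a chain of the interferon-gamma receptor, rose, and in VCAM cells Ifngr2 rose by 0.60 while Jak2, Ifnar2 and Jak1 fell by 1.05, 0.98 and 0.95 on the log2 scale. In the step from 60 to 84 hr, in the comparison of sorts at 84 hr and in old against young QSCs none of the 9 was called (limma, 4 to 8 higher and 0 to 3 lower at an unadjusted p under 0.05). In old against young 60 hr ASCs Il10rb, a chain of the interferon-lambda receptor, was higher by 0.71 and Jak2 by 0.61. Of 10 STAT and IRF genes outside the members 5 fell at 60 hr in each young sort. Among those that fell in VCAM cells Stat3 fell most, by 2.25 on the log2 scale. In YFP cells Stat3 averaged 12.56 in QSCs and 9.96 at 60 hr. Of 14 genes for nucleic acid sensing outside the members, Ddx60, Ddx58 (RIG-I) and Tlr7 rose from 60 to 84 hr by 2.73, 1.89 and 1.62 in YFP cells and by 1.27, 1.02 and 0.64 in VCAM cells, and were higher in YFP than in VCAM 84 hr ASCs by 1.43, 0.82 and 1.46.

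A further 40 interferon-stimulated genes that are not members, a list also drawn up with earlier results known, moved in the same directions as counts. In YFP cells 5 rose and 16 fell at 60 hr (background 17.2% higher and 12.8% lower) and 20 rose and none fell from 60 to 84 hr (background 4.66% and 2.19%). In VCAM cells 4 rose and 15 fell at 60 hr (background 16.6% and 12.6%) and 11 rose and none fell from 60 to 84 hr (background 3.22% and 0.732%). In YFP over VCAM 84 hr ASCs 8 were higher, in old over young QSCs 11, and in old over young 60 hr ASCs 12, and none was lower in these 3 comparisons (limma, 1 to 5 lower at an unadjusted p under 0.05). Of all genes 1.21%, 3.04% and 4.75% were called higher and 0.446%, 4.70% and 0.657% lower in the same order. Among old QSCs Ifi205, a relative of Ifi207, was higher by 2.12, Gbp5 by 1.58 and Iigp1 by 1.36.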

How the data were processed

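RNA of sorted satellite cells (total RNA, extracted with Trizol per the labels) was hybridized to 30 Affymetrix Mouse Gene 1.0 ST arrays. The authors deposited log2 values, made in Affymetrix Expression Console with RMA, which corrects background, quantile-normalizes and summarizes probe sets, so that changes are relative to the other probe sets. The sources used here give no versions. Of 35556 probe sets, 21789 carry 1 symbol in the platform annotation, 1621 several and 12146 none. Only the first kind was used, taking the brightest per gene over all arrays, which gave 19938 genes with no filter on low values. A group-means model for the 10 groups (20 residual df) was fitted by limma 3.58.1 (R 4.3.3) over all arrays, and 22 comparisons were read from it. Called genes had an adjusted p (Benjamini-Hochberg, over all genes, 2-sided) under 0.05 and at least a 1.5-fold change. The fit was tested on simulated data. Summed levels add the values after they were taken off the log2 scale. Promoter sequences came from RefSeq.

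The members, lists, comparisons and fold threshold were chosen with earlier results of these data known. Per-array values were given for the 12 members with the widest range of group means and for Irf1, Irf7, Irf9 and Stat2. Named changes were up to 3 called members per direction and comparison, called members of a role group, and up to 3 called genes per pathway list, direction and comparison. Members named beyond this, such as those not called, were chosen after their values were seen. Replicate numbers did not pair the arrays: 27 of 135 same-numbered pairs correlated above 0.1 after group means were removed (mean 0.035, against -0.018 for other numbers). The alternatives tried were median centring, quantile normalization, leaving out dim genes, the mean of all probe sets, no fold threshold, an intensity trend with robust variance, only the groups compared, a replicate block, leaving out each array, and the median over members.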

Additional observations from a re-analysis of the deposited data

Results flagged for a closer look

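In 5 comparisons the response of the interferon genes was set against that of another group by an interaction contrast in the same limma model, and members passed. From QSCs to 84 hr, 25 members responded more upward in YFP than in young VCAM cells, led by Ifit1 (1.37 ± 0.17), Ifit2 (1.28 ± 0.14) and Ifit3 (1.25 ± 0.15). Of all genes 3.84% were called higher and 2.71% lower. In the step from 60 to 84 hr, 21 members responded more upward in YFP cells, led by Rtp4 (1.18 ± 0.13), Irgm1 (1.14 ± 0.11) and Oasl2 (1.04 ± 0.11). The background of that step was 0.838% higher and 0.441% lower. Of 20 monocyte and macrophage markers, 15 were called higher in the first of these differences and 1 was called in that of the step. Both counts are on the log2 scale. On the linear scale, the marker sums given above rose from 60 to 84 hr in both sorts and were higher in YFP cells at both times. The part of monocytes and macrophages was not tested.

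At 36 hr 3 of 42 members differed between the sorts, Cmpk2 (0.73 ± 0.10) and Irf1 (0.68 ± 0.09) with a higher and Lgals3bp (-0.87 ± 0.10) with a lower response in YFP cells. At 60 hr 2 of 42 did, Irf1 (0.67 ± 0.09) and Irgm1 (-0.60 ± 0.11). The background was 4.61% higher and 4.47% lower at 36 hr, and 2.78% and 2.21% at 60 hr. Both counts lay near these shares and are not read as a trait of the members. Irf1 lost both calls with the mean of its probe sets, and Irgm1 lost its call under quantile normalization. Between ages at 60 hr 5 members differed, led by Lgals3bp (1.499 ± 0.10), Ifi27 (0.85 ± 0.08) and Trim30a (0.79 ± 0.15), and 19 of the 20 monocyte and macrophage markers also had a higher response in old cells, whose part was not tested. Of all genes 6.81% were called higher and 2.16% lower between ages. Groups of 3 arrays are too small for a test of single outlying arrays.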

How the results depend on the processing

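No named gene changed direction under any alternative. Without the fold threshold, on the adjusted p alone, more members were called: at 36 hr 29 in YFP and 33 in VCAM cells, at 84 hr 40 in YFP and 31 in VCAM cells, from 36 to 60 hr 35 in YFP cells, and from 60 to 84 hr 35 in VCAM cells. At 36 hr in VCAM cells these were 17 higher and 16 lower, against 7 and 12 with the threshold. On the same rule YFP over VCAM gave 13 in QSCs, 18 at 36 hr, 5 at 60 hr and 41 at 84 hr, old over young gave 30 in QSCs and 33 at 60 hr, and the differences in response gave 17 between ages, 14 and 9 between sorts at 36 and 60 hr, and 39 at 84 hr. The shares of all genes given above use the fold threshold. They are therefore no background for these counts on the adjusted p alone. Quantile normalization called 1 member, lower, between the sorts in QSCs. At 36 hr between the sorts both scalings gave 1 higher and 2 lower, against 1 and 1, and for the difference in response at 60 hr quantile normalization gave 2 higher and 0 lower between sorts, against 1 and 1, and both scalings gave 4 higher and 1 lower between ages, against 5 and 0. With the mean of all single-gene probe sets of a gene, 1 member was called for the 60 hr difference in response between sorts, since Irf1, which has more than 1 probe set, had 0.35 there and 0.50 at 36 hr, under the fold threshold. Irgm1 at 60 hr was at the threshold, and lost its call under quantile normalization (-0.56) and in 5 fits that left out 1 array (-0.58 to -0.55). Leaving out each array in turn gave 2 to 4 members between the sorts at 36 hr (4 without VCAM 36 hr replicate 1), 0 to 1 at 60 hr (1 without VCAM 60 hr replicate 3), 0 to 1 in QSCs (1 without YFP QSC replicate 3 or VCAM QSC replicate 1), and 1 to 3 for the difference in response at 60 hr (1 without YFP 60 hr replicate 1 or 2). The other 18 counts stayed within 1.5 times their value in each such fit, for example 12 to 14 with age in QSCs, 19 to 22 with age at 60 hr, 20 to 24 between sorts at 84 hr and 23 to 27 for the difference in response at 84 hr. With the replicate number as a block, each of the 22 counts was as without it, such as 13 with age in QSCs and 22 between sorts at 84 hr, and as 27 of 135 same-numbered pairs correlated above 0.1 the numbers were not taken as pairs. Median centring, the filter on dim genes, a fit of only the groups compared and an intensity trend kept every total count of called members within 1.5 times. The median over the members in place of the mean moved the level by more than 1 SD in 8 of 10 groups, for example 8.53 against 8.35 in YFP 84 hr ASCs, and gave 6.98 in VCAM and 7.06 in YFP 60 hr ASCs, still the lowest. Each group has 3 arrays. Mx1 had a group mean under 6 on the log2 scale in every group, the only member to do so.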

Other observations

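A list of 10 genes of the interleukin 6 type response, which also signals through Janus kinases and STATs, was read beside the interferon genes. At 60 hr against QSCs 9 fell in YFP cells, 8 in young VCAM cells and 8 in old VCAM cells, and none rose (limma, 0 to 1 higher at an unadjusted p under 0.05). Of all genes 12.8%, 12.6% and 11.7% were called lower and 17.2%, 16.6% and 17.8% higher in the same order. Cebpd, a transcription factor of the acute phase response, changed by -4.30 on the log2 scale in YFP, -4.29 in young VCAM and -3.38 in old VCAM cells, all called, and Osmr, the receptor for oncostatin M, by -3.68, -2.42 and -1.95, all called. In old over young QSCs 4 of the 10 were higher, Il6 by 1.46, Osmr by 1.07, Fgl2 by 1.07 and Il6ra by 0.76 on the log2 scale, and in old over young 60 hr ASCs 6 were higher, among them Il6 by 1.97, Fgl2 by 1.65 and Osmr by 1.54. The share of all genes called higher was 3.04% among QSCs and 4.75% at 60 hr.

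Genes that hold the interferon response in check, and the subunits of the nuclease that clears RNA joined to DNA, went in several directions. Socs3, a feedback inhibitor of Janus kinases that also stands in the interleukin 6 list, fell at 60 hr by 1.62 on the log2 scale in YFP and 1.89 in VCAM cells and was 0.84 higher in old than in young 60 hr ASCs. Rnaseh2a and Rnaseh2b rose at 60 hr, by 1.58 and 1.49 in YFP and by 1.40 and 1.57 in VCAM cells. Of MHC class I genes outside the members, H2-Q4 fell at 60 hr by 3.09 on the log2 scale in YFP and 2.69 in VCAM cells, and was higher in old than in young cells by 1.09 among QSCs and 1.58 at 60 hr.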
